A study of Mus musculus with 6 samples.

Results

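The caveolins (Cav1, Cav2 and Cav3) and the cavins (Cavin1, Cavin2 and Cavin3) were examined as a group of 6 genes in RNA-sequencing data from the mouse striatum. Their rows were found by matching the Ensembl identifiers of the deposited table to gene symbols of the GENCODE M21 annotation, and all 6 were found among 46078 genes. The group was chosen on the normalized read counts of Cav2, which were lower in Shank3 transgenic (TG) mice than in wild-type (WT) mice in these same data. The TG-to-WT difference of Cav2 is therefore given as a description with no test, and the differences of the other members come from the same comparison and are not independent of that choice. The study compared 3 WT with 3 Shank3 TG mice, males of the C57BL/6J strain aged 12 weeks, with 1 striatal library per mouse. The TG mice carry EGFP-tagged Shank3, a scaffold protein of the excitatory postsynapse, in addition to the endogenous gene. The promoter of the transgene is not given in the sources used here.

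Caveolae are flask-shaped pits of the plasma membrane. Caveolins are hairpin membrane proteins that build the pit, and cavins are cytoplasmic proteins that coat its inner face. Cav1 is required for caveolae outside muscle and Cavin1 for caveolae in all cell types studied, Cav2 travels to the surface in complexes with Cav1, and Cav3 is the muscle form. In the brain, caveolae are best known from endothelial and mural cells of the vessel wall, and in the endothelium of the blood-brain barrier their number is kept low.

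Between 27689589 and 36647626 reads per library fell on genes. Shank3 itself had 29891, 28309 and 26044 normalized read counts in TG replicates 1, 2 and 3 and 13807, 12918 and 13865 in the WT replicates, with every TG library above every WT library. These values are gene counts divided by the size factor of the library, and the reads of the transgene and of the endogenous gene cannot be told apart in them. The medium spiny neuron markers, which define the striatum, were detected in every library (10 of 10 genes). A single library stood apart. In TG replicate 1 the median gene differed from its WT mean by 2.99 on the log2 scale among choroid plexus markers and by -0.35 among medium spiny neuron markers, and results are therefore given with and without it. In TG replicate 2 the choroid plexus markers differed by 1.06 at the median gene. Differences between genotypes were fitted with limma on log2(normalized read count + 1) for 17605 genes whose mean value reached 10, a scale that slightly understates the change of low genes.

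Cav2 (ENSMUSG00000000058) lies on chromosome 6 of GRCm38 from 17281185 to 17289115, and Cav1 (ENSMUSG00000007655) follows it on the same strand from 17306335 to 17341452, with 17.2 kb between them. Since the TG-to-WT differences of these neighbours had opposite signs, the 250 bases before the start site of each gene (RefSeq, GRCm38.p6, plus strand, at chr6:17280935-17281184 for Cav2 and chr6:17306085-17306334 for Cav1) are shown with motif matches in capitals.
Cav2: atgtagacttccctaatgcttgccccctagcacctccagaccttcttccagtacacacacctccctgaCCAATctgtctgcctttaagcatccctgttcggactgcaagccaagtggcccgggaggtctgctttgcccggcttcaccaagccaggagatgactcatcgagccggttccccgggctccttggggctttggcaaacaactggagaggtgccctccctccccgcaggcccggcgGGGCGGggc
Cav1: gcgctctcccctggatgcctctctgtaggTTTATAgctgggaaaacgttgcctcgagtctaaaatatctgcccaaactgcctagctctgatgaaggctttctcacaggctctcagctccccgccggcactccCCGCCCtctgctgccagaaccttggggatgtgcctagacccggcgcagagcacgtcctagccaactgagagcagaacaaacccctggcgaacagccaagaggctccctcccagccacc
The motifs searched on both strands were the TATA box as TATAAA, the CCAAT box by its name, the GC box as GGGCGG and an E-box as CACGTG. The Cav2 window held 1 CCAAT (first base at position -182 from the start site) and 1 GGGCGG (position -9). The Cav1 window held 1 TATAAA (position -221) and 1 GGGCGG (position -118), both on the reverse strand. No match overlapped another, and neither window held CACGTG. Of all 32851 windows of this length, 33.8% held CCAAT, 32.7% GGGCGG, 12.4% TATAAA and 6.02% CACGTG. Both windows held 10 CG dinucleotides, against a median of 6 over all windows, and 62.2% of all windows held fewer than 10. A second RefSeq start of Cav1 lies inside the gene at 17307640. An antisense gene, Gm15581, spans both genes on the minus strand. It shares 0 exon bases with either and had between 0 and 2.25 normalized read counts per library.

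Cav2, which forms mixed complexes with Cav1, had 597, 569.9 and 639 normalized read counts in TG replicates 1, 2 and 3 and 738, 715 and 736 in WT replicates 1, 2 and 3. Every TG library lay below every WT library, and the highest TG value belonged to replicate 3. The TG mean was 602 ± 34.7 and the WT mean 729.7 ± 13.2 (SD, n = 3 each), a difference of -17.5%. The log2 fold change was -0.28 (standard error 0.07), and -0.27 without TG replicate 1. These are the values that chose the gene group. Groups without overlap and with the TG mice lower were found in 5.05% of the genes tested, and nothing is read from that share for Cav2.

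Cav1, the main structural caveolin, had 462, 418 and 377 normalized read counts in the TG libraries and 356, 352 and 403 in the WT libraries. The groups overlapped, since WT replicate 3 lay above TG replicate 3, while 5.06% of the genes tested had every TG value above every WT value. The TG mean was 419 ± 42.4 and the WT mean 370.0 ± 28.2 (SD, n = 3 each). The log2 fold change was 0.18 (standard error 0.09, 95% confidence interval -0.03 to 0.39). It was 0.10 without TG replicate 1, the library with the highest Cav1 value, and it had the same sign with any 1 library left out.

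**Figure D1:**
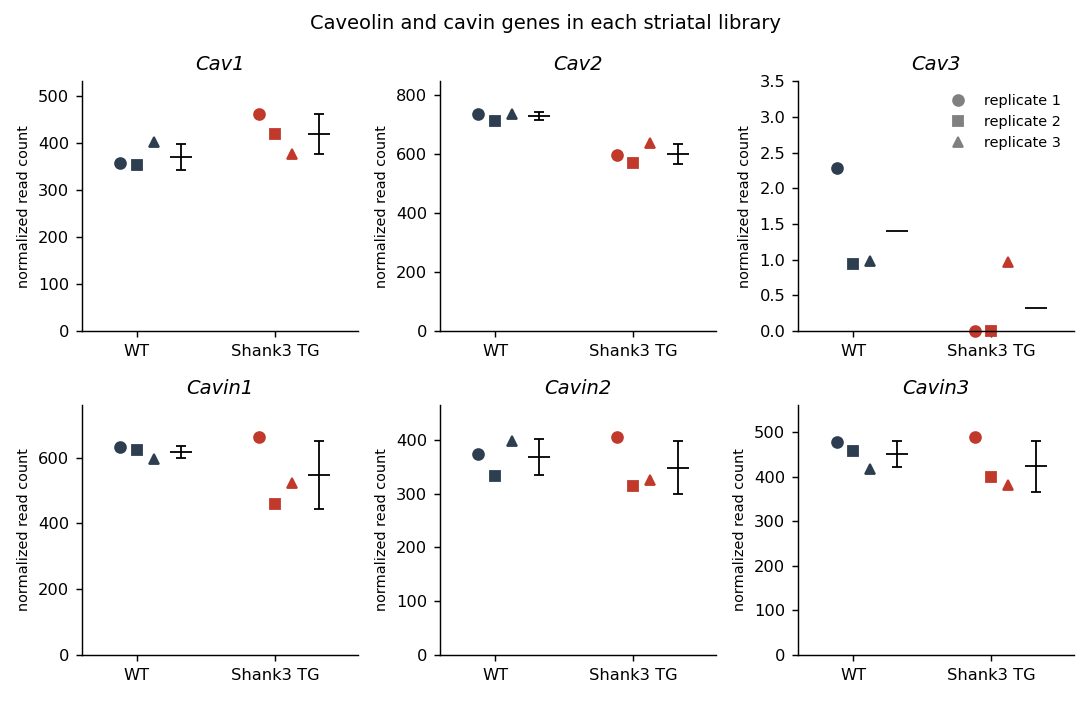
Normalized read counts of the 6 caveolin and cavin genes in each library, by genotype on the x axis. Symbols mark the replicate number, and the bars to the right of the points are the mean and SD of 3 mice (mean alone for Cav3, whose axis covers a few counts). The TG and WT values of Cav2 do not overlap, whereas TG replicate 1 lies highest of all 6 libraries for Cav1 and the 3 cavins.

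The cavins were lower on average in TG mice, but their groups overlapped. Cavin1 (ENSMUSG00000004044; chromosome 11, 100956733 to 100970887), the cavin that caveolae require and the trimer-forming core of the coat, had 662, 457 and 524 normalized read counts for TG and 633, 623 and 597 for WT. TG replicate 1 was the highest of the 6 libraries and TG replicates 2 and 3 were the lowest. The TG mean was 548 ± 104 and the WT mean 618 ± 18.6 (SD, n = 3 each), and the log2 fold change was -0.19 (standard error 0.11, 95% confidence interval -0.44 to 0.06).

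Cavin2 (ENSMUSG00000045954; chromosome 1, 51289126 to 51302960), a phosphatidylserine-binding partner of Cavin1, had 405.0, 314 and 326 normalized read counts for TG and 373, 333 and 399 for WT. As with Cavin1, TG replicate 1 was the highest library and TG replicates 2 and 3 the lowest. Its log2 fold change was -0.09 (standard error 0.11, 95% confidence interval -0.33 to 0.16).

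Cavin3 (ENSMUSG00000037060; chromosome 7, 105480083 to 105482300), which binds protein kinase C delta, had 488, 400.1 and 381 normalized read counts for TG and 477, 457 and 418 for WT. The order was again TG replicate 1 highest and TG replicates 2 and 3 lowest. Its log2 fold change was -0.10 (standard error 0.10, 95% confidence interval -0.32 to 0.13). Cavin3 shares 374 exon bases with Gm45667 on the opposite strand, a gene not analysed here.

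Cav3 (ENSMUSG00000062694; chromosome 6, 112459505 to 112472872), the muscle caveolin, had between 0 and 2 reads per library and was not tested. These counts are under the floor of 3 counts in each library, so no fold change is given. Of 8 skeletal muscle genes listed, 4 had a mean under 10, while Acta1, skeletal actin, had between 199 and 222 normalized read counts per library.

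By limma, 0 of the 4 tested members other than Cav2 passed an adjusted P value of 0.05, against 0.00568% of all genes tested, which is Shank3 alone. The adjusted P value of Cav1, Cavin1, Cavin2 and Cavin3 was between 0.971 and 0.973. Of these 4, 0 passed an unadjusted P value of 0.05 by limma, edgeR, DESeq2 or voom, where limma passed 1.98% of all genes tested as higher and 2.33% as lower in TG mice. Of these 4, 3 were lower and 1 higher in TG mice, with a median log2 fold change of -0.09, against a median near 0 and 50.8% lower over all genes tested. Cav2 is left out of these counts, because the group was chosen for it. The 95% confidence intervals of the cavins still hold decreases of up to 0.44, 0.33 and 0.32 on the log2 scale.

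**Figure D2:**
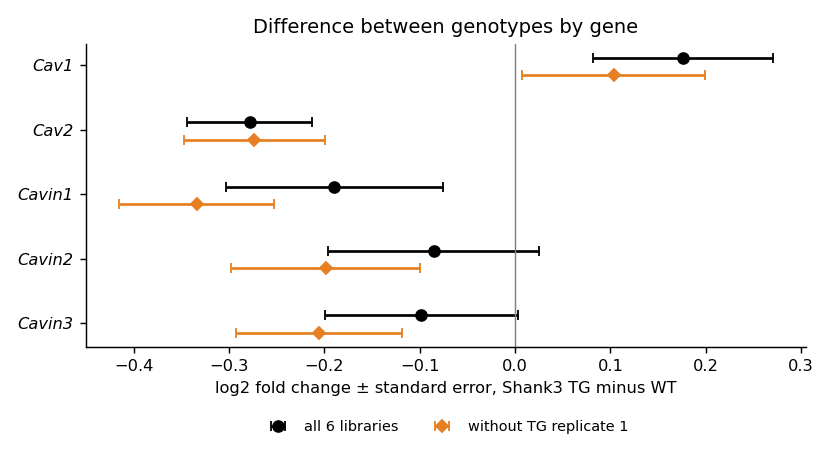
Log2 fold change of TG over WT (x axis) for the 5 genes tested, with all 6 libraries (circles) and without TG replicate 1 (diamonds). Bars are standard errors from limma. Cav2, whose values chose the group, lies at -0.28 and -0.27. The 3 cavins move further below 0 without TG replicate 1, and Cav1 lies above 0 in both.

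The size of the cavin differences depended on single libraries. Without TG replicate 1, the log2 fold changes were -0.33 (standard error 0.08) for Cavin1, -0.20 (standard error 0.10) for Cavin2 and -0.21 (standard error 0.09) for Cavin3. Both remaining TG libraries then lay below all 3 WT libraries for each cavin, as they did for Cav2, but not for Cav1. Such a separation, with the TG mice lower, was found in 13% of all genes tested when that library was left out. Without TG replicate 2 the log2 fold change was -0.07 for Cavin1, -0.01 for Cavin2 and -0.06 for Cavin3, and without TG replicate 3 it was -0.04 for Cavin2 and -0.03 for Cavin3. Without WT replicate 3 it was -0.03 for Cavin2 and -0.15 for Cavin3, without WT replicate 2 it was -0.16 for Cavin2, and without WT replicate 1 it was -0.06 for Cavin3. The adjusted P value by limma stayed above 0.05 for Cav1 and the cavins with any 1 library left out.

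The pooled SD within genotypes, on the log2 scale, was 0.06 for Cav2, 0.13 for Cav1, 0.15 for Cavin3, 0.17 for Cavin2 and 0.19 for Cavin1, and the median over the 3201 genes with a mean of 300 to 800 normalized read counts was 0.09. Without TG replicate 1 the pooled SD was 0.07 for Cav2, 0.11 for Cav1, 0.08 for Cavin3, 0.11 for Cavin2 and 0.09 for Cavin1, so the larger spread of the 3 cavins rested on that library. The spread of Cav2 enters the separation of its groups, which chose it, and is given as a description. Each tested member was counted with between 279 and 771 reads per library. Counting error alone gives an SD between 0.06 and 0.08 on this scale.

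Levels of different genes were compared as reads per kilobase of exon and 1000000 reads. In WT mice Cavin3 was the most abundant at 8.60 ± 0.55 (SD, n = 3), followed by Cav2 at 6.94 ± 0.10, Cavin1 at 5.46 ± 0.15, Cavin2 at 3.82 ± 0.34 and Cav1 at 3.41 ± 0.26. With the exon union as length, neighbours in this order did not overlap between WT mice, except Cavin2 and Cav1. In TG mice the means were 8.10 ± 1.09 for Cavin3, 5.74 ± 0.32 for Cav2, 4.86 ± 0.92 for Cavin1, 3.87 ± 0.39 for Cav1 and 3.63 ± 0.51 for Cavin2. Cav2 and Cavin1 overlapped there, as did Cavin1 with Cav1 and Cav1 with Cavin2. Cav3 was at most 0.0624 in any library. Cav1 has 10 annotated transcripts, and the order depends on the length used. With the longest transcript in place of the exon union, the WT level was 8.47 ± 0.12 for Cav2, which then overlapped Cavin3, and 4.27 ± 0.33 for Cav1, which then had a higher mean than Cavin2 and still overlapped it.

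**Figure D3:**
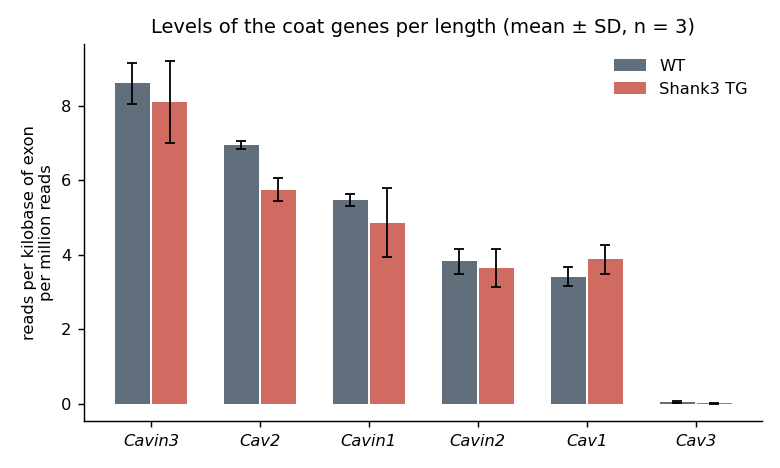
Levels of the 6 genes as reads per kilobase of exon and 1000000 reads (y axis), with bars for the mean and error bars for the SD of 3 mice of each genotype. Length is the exon union, and genes are ordered by the WT level, from Cavin3 at 8.60 to Cav3, which is near 0.

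Cav1 and Cav2 were also compared as a ratio within each library, a quantity that does not depend on the scaling of libraries. Cav1 per Cav2 was 0.773, 0.734 and 0.590 in TG replicates 1, 2 and 3 and 0.482, 0.492 and 0.547 in the WT replicates. Every TG ratio lay above every WT ratio, with TG replicate 3 and WT replicate 3 closest to each other. The TG mean was 0.699 ± 0.0964 and the WT mean 0.507 ± 0.0347 (SD, n = 3 each). The mean log2 ratio was -0.53 in TG and -0.98 in WT mice, a difference of 0.45. With each library left out in turn the log2 difference was between 0.38 and 0.57. No test is given, because Cav2 was chosen for its difference. The sum of both genes was 1021 ± 35.7 for TG and 1099.7 ± 36.6 for WT (SD, n = 3 each).

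**Figure D4:**
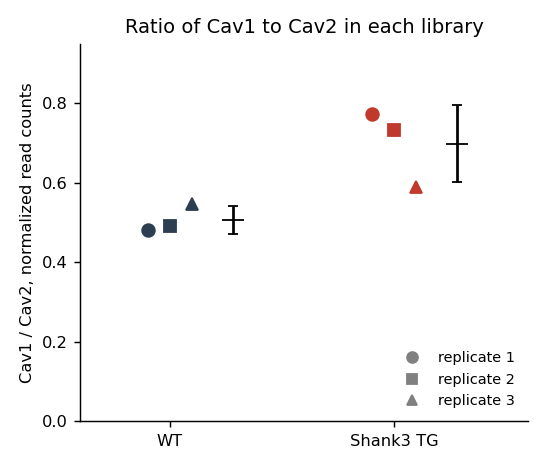
Ratio of Cav1 to Cav2 normalized read counts (y axis) in each library by genotype, with the mean and SD of 3 mice to the right of the points. The TG ratios lie between 0.590 and 0.773 and the WT ratios between 0.482 and 0.547.

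The genes around the locus were compared next. Within 500 kb of the span from Cav2 to Cav1, 5 other genes were tested, with log2 fold changes between -0.09 and 0.09 and a median of 0.04. The groups were apart in 0 of them, against 10.1% of all genes tested in either direction, which 5 genes are too few to be read against. The 95% confidence intervals were -0.54 to 0.36 for Gm4876, -0.34 to 0.48 for Tes and -0.50 to 0.69 for Met. They were -0.07 to 0.15 for Capza2 and -0.19 to 0.25 for St7. These intervals are not set against the value of Cav2, because that value chose the group. The difference of these genes from Cav2 was not tested. These were Tes and the antisense gene Gm4876 on one side and Met, Capza2 and St7 on the other. Capza2, which encodes an actin capping protein subunit and is the most abundant of them, differed by 0.04 on the log2 scale (standard error 0.05). Met, a receptor tyrosine kinase, had between 56.2 and 113 normalized read counts for TG and between 60.7 and 108 for WT.

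The marker lists of the vessel wall were compared library by library, as its cells are the ones best known for caveolae in the brain. The 20 endothelial markers summed to between 22751 and 24433 normalized read counts for TG and between 21945 and 24097 for WT, with 0 genes at 0 in any library. Their median log2 fold change was -0.01, and 0 were called (1 at an unadjusted P value of 0.05 by limma, 2 by DESeq2). The share at that P value over all genes tested was 4.31% by limma. The groups were apart in 1 of the 20, Ly6c1, with TG higher, against 5.06% of all genes tested. Among the named ones, the glucose transporter Slc2a1 differed by 0.13 on the log2 scale (standard error 0.06), Flt1 by 0.00 (standard error 0.06), Cldn5, a tight junction protein, by -0.25 (standard error 0.11), and Ly6c1 by 0.22 (standard error 0.08). Per 1000 endothelial marker counts, Cav2 had 24.4, 24.5 and 28.1 in TG replicates 1, 2 and 3 and 30.6, 32.6 and 30.8 in the WT replicates. These are the values that chose Cav2 on another scale, and the marker sums overlapped between genotypes, so nothing further is read from them. Cav1 had 18.9, 18.0 and 16.6 for TG and 14.8, 16.0 and 16.9 for WT, which overlapped. With the mean endothelial marker level as a covariate the log2 fold change of Cav1 was 0.18 (standard error 0.09). In whole tissue, fewer cells of a type and less RNA per cell cannot be told apart.

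The 12 mural cell markers summed to between 9129 and 9275 normalized read counts for TG and between 9027 and 10355 for WT. Their median log2 fold change was -0.10, with 10 lower and 2 higher, and 0 called (1 at an unadjusted P value of 0.05 by limma and by DESeq2). Over all genes tested 50.8% were lower, and 4.31% passed that unadjusted P value by limma. Vtn, which pericytes secrete as vitronectin, had the smallest P value of the 12 by limma and differed by -0.18 on the log2 scale (standard error 0.06). Its groups did not overlap, the only such case of the 12 markers, while 5.05% of all genes tested were apart and lower. Rgs5, a pericyte regulator of G protein signalling, had -0.08 (standard error 0.09).

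For the sum of the 9 perivascular fibroblast markers, as for each cavin, TG replicate 1 was the highest library and TG replicates 2 and 3 were the lowest. Not every marker had this order. Pdgfra, the most abundant of them, was highest in TG replicate 2, and Col1a2 and Fbln1 were highest in WT replicate 2. The 9 markers summed to 4477, 3460 and 3072 normalized read counts in TG replicates 1, 2 and 3 and to between 3629 and 4469 in WT mice. The sum of TG replicate 1 thus lay just above that of the highest WT library. All 9 had a log2 fold change below 0, against 50.8% of all genes tested. The groups were apart in 0, against 10.1% of all genes tested in either direction. Without TG replicate 1 the groups were apart and lower in 6 of 9, against 13% of all genes tested. Their median log2 fold change was -0.12, and -0.36 without TG replicate 1, with 0 called (0 at an unadjusted P value of 0.05 by limma and by DESeq2). Col1a2, a chain of type I collagen, differed by -0.33 on the log2 scale (standard error 0.16), and Slc6a13, a GABA and taurine transporter, had -0.27 (standard error 0.19). Of these 9 markers, 0 were at 0 in any library. The part of these cells in the values of the cavins was not tested. The Cav2 value in TG replicate 1 lay between those of TG replicates 2 and 3. As Cav2 was chosen for its lower values in the TG mice, nothing is read from its order.

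**Figure D5:**
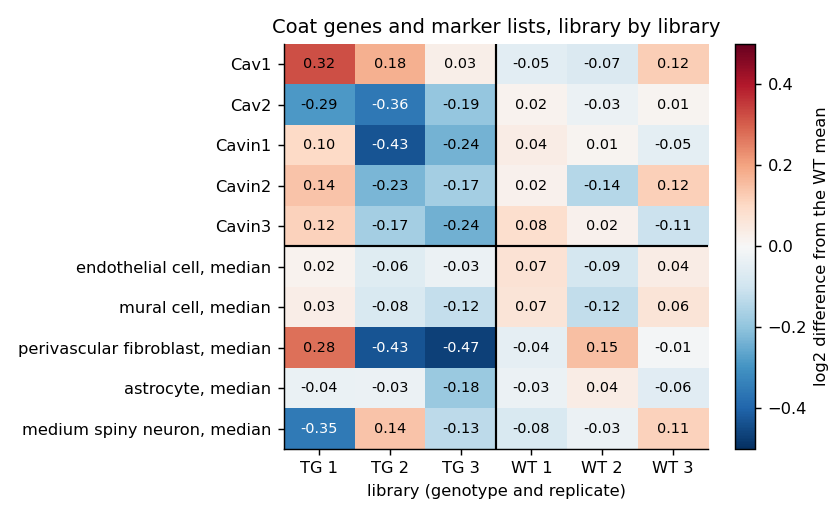
Log2 difference from the WT mean in each library (columns) for the 5 tested coat genes (upper rows) and for the median gene of 5 marker lists (lower rows), with the value written in each cell and colour from blue (lower) to red (higher). The cavins and the median perivascular fibroblast marker are above the WT mean in TG replicate 1 and below it in TG replicates 2 and 3. Cav2, chosen for its fall, is below the WT mean in all 3 TG libraries. The median astrocyte marker is also below it there, but WT replicate 3, at -0.06, lies below TG replicates 1 and 2 for that list.

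The genes listed for the caveola neck and for membrane shaping overlapped between genotypes. Cavin4, a cavin outside the group examined here, was counted in this list. Of the 12 genes listed (EHD ATPases, pacsins, dynamins, Cavin4 and Ror1), 12 were tested, 5 were higher and 7 lower in TG mice, 0 were called (0 at an unadjusted P value of 0.05 by limma and by DESeq2), and the groups were apart in 0 of them. Over all genes tested, 4.31% passed the unadjusted P value by limma and 10.1% had groups apart, so that 0 of 12 is near the background. Their median log2 fold change was -0.02. The dynamin genes Dnm1 and Dnm3, which encode GTPases that cut vesicles from the membrane and are mostly neuronal, had log2 fold changes of 0.05 (standard error 0.07) and 0.07 (standard error 0.05). The membrane-bending proteins Pacsin1 and Pacsin3 had log2 fold changes of -0.03 (standard error 0.07) and -0.07 (standard error 0.06). Ehd2, the ATPase that rings the caveola neck and was added to the named genes for that role after its values were seen, had between 258 and 323 normalized read counts for TG and between 249 and 297 for WT.

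Flotillins and other raft scaffolds, which order membrane without caveolae, numbered 8, of which 6 were higher and 2 lower with a median log2 fold change of 0.03 and 0 called (0 at an unadjusted P value of 0.05 by limma and by DESeq2). Flot1 differed by 0.03 on the log2 scale (standard error 0.08) and Flot2 by -0.02 (standard error 0.06). The mitochondrial scaffold Stoml2 had 0.09 (standard error 0.06), and Erlin1, of the endoplasmic reticulum, 0.08 (standard error 0.09). The groups overlapped in each of the 8 genes. Over all genes tested 4.31% passed the unadjusted P value by limma and 10.1% had groups apart, so 0 of 8 is near the background.

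The 20 genes for signalling and transport linked to caveolae divided into 7 higher and 13 lower, with a median log2 fold change of -0.02 and 0 called (2 at an unadjusted P value of 0.05 by limma and by DESeq2), and the groups overlapped in each of them. The shares over all genes tested were 4.31% at that P value by limma and 10.1% with groups apart. The calcium pump gene Atp2b4 differed by 0.19 on the log2 scale (standard error 0.08), the kinase Fyn by 0.00 (standard error 0.05), and Acvrl1, an endothelial receptor for BMP ligands, by -0.21 (standard error 0.09). The genes Nos3, Plvap and Mfsd2a were added for their role after their values were seen. Nos3, the endothelial nitric oxide synthase that Cav1 binds, had between 164 and 202 normalized read counts for TG and between 194 and 207 for WT. Plvap, of the diaphragm of fenestrae and caveolae, had between 202 and 207 for TG and between 201 and 219 for WT. Mfsd2a, a lipid transporter known to restrain caveolar transcytosis at the blood-brain barrier, had between 599.8 and 658 for TG and between 536 and 733 for WT.

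The genes most like each member were taken as those with the smallest root mean square difference of centred log2 values over the 6 libraries, among 12832 genes with a mean of at least 100. For Cav2 these were B3galt4, Zbtb7b and Myh7b, with differences between 0.03 and 0.04. For Cav1 they were Agbl4, Plekhg4 and Zfp961, with differences between 0.03 and 0.05. For Cavin1 they were Fbn2, Bicc1 and Gstk1, for Cavin2 Dok3, Myo1d and Nr4a1, and for Cavin3 Gbp7, Dhrs4 and Dennd2a. These genes were picked as the nearest, so a member that is not among them is farther by construction. Cavin3 was the member nearest to Cavin1, at 0.10 and rank 170 among 12831 genes, and Cavin1 was the member nearest to Cav2, at 0.16 and rank 5043. Cav2 was the member farthest from Cav1, at 0.26 and rank 12277. Distances to Cav2 rest on the values that chose the group, so nothing is read from them.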

How the data were processed

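Striatal RNA of 3 WT and 3 Shank3 TG mice was sequenced, with 1 library per mouse and groups taken from the sample labels. According to the methods and the submitters' processing notes, the reads were trimmed with Trimmomatic (0.35), aligned with TopHat2 (2.1.0) to GRCm38 and counted per gene with HTSeq. The signal the authors deposited is each gene's count over its library's size factor from DESeq2. The annotation release and the strand setting of the counting are not given in the sources used here. Dividing by the smallest value above 0 gave whole reads, within 0.01, for 100% of values in each library, and DESeq2 on these reads called 7 genes and edgeR's quasi-likelihood test 1. Of the 46078 genes, 45143 were matched to GENCODE M21, which gave symbols, positions and exon lengths.

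Differences were fitted with limma (3.58.1, R 4.3.3) with a mean-variance trend and no covariate on log2(value + 1), over 17605 genes whose mean value reached 10, and P values were adjusted by Benjamini-Hochberg over all of them (threshold 0.05). P values by limma set the difference of the group means against the spread between 3 mice per group, moderated towards the trend over all genes tested. The SD given for counting error covers that error only. edgeR (4.0.16), DESeq2 (1.42.0), voom, other scalings, filters and pseudocounts, leaving out single libraries, a block on replicate number and an endothelial covariate were alternatives. The script was tested on simulated data. The members and lists were chosen with earlier results of these data known. Named genes were the 6 members, Shank3, the 2 most abundant genes and the 2 with the smallest P value of the lists described, tested neighbours within 500 kb, and the 3 genes most like each member. Lists of astrocyte, microglia, oligodendrocyte, cortical neuron, skeletal muscle and red blood cell genes were also summed, and 0 of their genes were called by limma or DESeq2 (2, 4, 0, 0, 0 and 0 at an unadjusted P value of 0.05 by limma, and 2, 3, 0, 2, 0 and 0 by DESeq2). Their median log2 fold changes were -0.05, -0.12, -0.03, 0.06, -0.02 and 0.27. Over all genes tested 4.31% passed by limma. All 10 microglia markers were lower and 5 apart and lower, against 50.8% and 5.05% of all genes. The 11 choroid plexus markers tested were all higher (median 1.30, or 0.41 without TG replicate 1), with 2 apart (5.06% of all genes) and 0 called. At the unadjusted P value 4 passed by limma and 6 by DESeq2. Medium spiny neuron markers were lower in 9 of 10 (median -0.14, or 0.01 without TG replicate 1).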

Additional observations from a re-analysis of the deposited data

How the results depend on the processing

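The number of genes called between Shank3 TG and WT mice was 1 by limma, 7 by DESeq2 (5 higher, 2 lower) and 5 without a filter on low values (4 higher, 1 lower), and between 1 and 2 with each library left out, the higher count without TG replicate 2 or TG replicate 3. Cav1, Cavin1, Cavin2 and Cavin3 were not called under any of the 17 alternatives and kept their signs. Cav2 also kept its sign, but its fall chose the group, so nothing is read from its sign or range. With each library left out, the log2 fold change was between 0.10 and 0.25 for Cav1, -0.32 and -0.24 for Cav2, -0.33 and -0.07 for Cavin1, -0.20 and -0.01 for Cavin2, and -0.21 and -0.03 for Cavin3. The smallest values of Cavin1 and Cavin2 were seen without TG replicate 2 and that of Cavin3 without TG replicate 3. With the longest transcript as length, levels were 4.56 for Cav1 and 7.74 for Cav2, against 3.64 and 6.34, because the exon union is longer. With the genotype mean of each gene removed, same-numbered libraries correlated at 0.05, 0.02 and 0.09, and other pairs of libraries were not computed. The main fit did not pair libraries by replicate number. With the replicate block 1 gene was called. The log2 fold changes were then 0.18 for Cav1, -0.28 for Cav2, -0.19 for Cavin1, -0.09 for Cavin2, -0.10 for Cavin3 and 1.05 for Shank3. With 279 to 771 reads per library, counting error limits each tested member to about 0.06 to 0.08 on the log2 scale, and 2 reads or fewer leave Cav3 without a usable level.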
